A study of Mus musculus with 4 samples.

Results

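The MYC network is a family of basic helix-loop-helix leucine zipper transcription factors that compete for one dimerization partner and one kind of DNA site. Its 10 genes examined here were Myc, Mycn, Max, Mxd1, Mxd3, Mxd4, Mxi1, Mnt, Mlx and Mga. They were found by their symbols among the 19938 genes that the array's gene table paired with probe sets of a single symbol. Each of the 10 had exactly 1 probe set. All 10 were measured, and their RNA was compared between 2 cultures of MEL cells and 2 cultures of ES-EP. MEL cells are a murine erythroleukemia line, here the clone DS19, which stably expressed a Gata-1 fusion with ER, the ligand-binding domain of the estrogen receptor, and grew in serum medium with puromycin. ES-EP are normal erythroid progenitors obtained by differentiating embryonic stem cells, and they grew in StemPro34 medium with Epogen, IGF-1, dexamethasone and stem cell factor. Both were harvested while proliferating. Because each cell type had its own medium, cell type and culture conditions cannot be told apart. Each is represented by 1 line, so that a p-value here concerns only repeat cultures of these lines. The spread behind it is moderated, each gene's own being drawn toward that of all genes.

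In this network MYC proteins pair with MAX, bind the E-box CACGTG and activate genes of growth, ribosome production and metabolism, while MXD proteins, MXI1 and MNT pair with MAX at the same sites and bring the SIN3 histone deacetylase complex. MLX heads a parallel branch with the glucose-responsive Mondo proteins, and MGA carries a MAX-binding domain into a Polycomb complex. In erythroid cells MYC is known for supporting the expansion of progenitors, and its forced expression is known to block the terminal differentiation of MEL cells.

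In MEL cells the repressor Mxd1 was 2.85-fold lower than in ES-EP, the only member with a difference of at least 2-fold (1 of 10, against 10.0% of all genes), and Mxd3 was also lower. The common partner Max and the large MAX partner Mga were modestly higher in MEL cells. Myc itself did not pass the test. With limma and a Benjamini-Hochberg adjusted p of at most 0.05 over all 19938 genes, 6 of the 10 members were called, 2 of them higher (Max and Mga) and 4 lower in MEL cells (Mxd1, Mxd3, Mycn and Mlx). Over all genes 63.8% were called, 20.5% higher and 43.2% lower in MEL cells, so that the members' count lay near the background. The members' median difference (MEL minus ES-EP, log2 scale throughout) was -0.14, beside a median of -0.15 over all genes. The arrays of both cell types did not overlap for any of the 10 members, as was the case for 81.8% of all genes. The exact permutation test for a single gene has 3 splits of 2 against 2 arrays and cannot give a p below 0.333.

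The downward shift of the median bears on each small difference below. The array medians were 5.68 and 5.67 in MEL cells and 5.81 and 5.84 in ES-EP. After quantile normalization, median centring or cyclic loess of the deposited values, the median difference of all genes was -0.027, -0.0058 and -0.0032. The calls over all genes were then 5344 higher and 5974 lower after quantile normalization, 5757 and 5644 after median centring and 5676 and 5460 after cyclic loess, against 4096 and 8622 with the values as deposited. Among the members, 2 higher and 2 lower were called after quantile normalization and after cyclic loess, and 3 higher and 2 lower after median centring. Max, Mga, Mxd1 and Mxd3 kept their calls and directions under all 3 rescalings. Replicate arrays correlated at r = 0.998 in each cell type, across genes, which are not independent replicates.

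**Figure D1:**
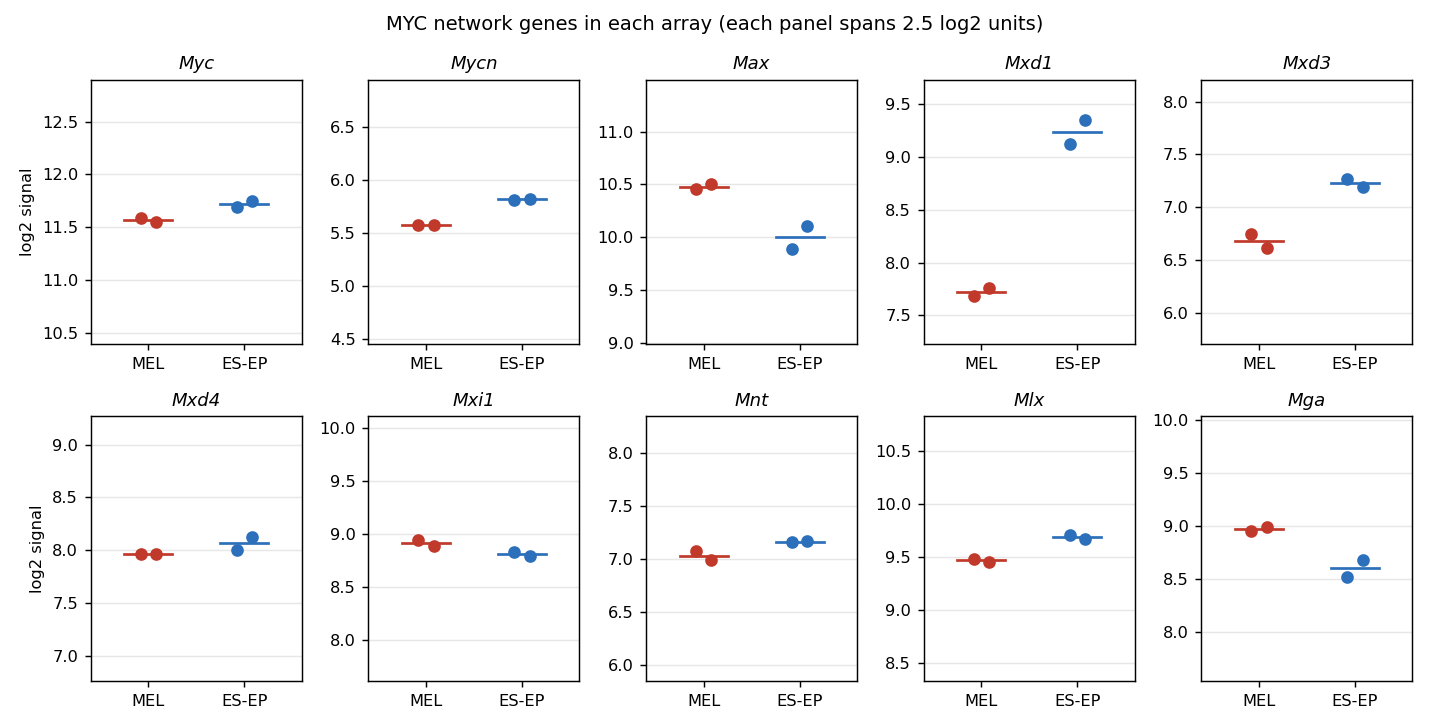
Log2 signal (vertical axis) of each MYC network gene in the 2 MEL arrays (red, left) and the 2 ES-EP arrays (blue, right) of its panel, with a point for each array and a line at the mean. Every panel spans the same number of log2 units, and the widest separation is that of Mxd1, at 7.69 and 7.76 in MEL cells and 9.12 and 9.35 in ES-EP.

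Before the values, the DNA just upstream of the genes is shown for the member that differed most and for the members that carry the network's own binding site there. RefSeq promoters, 250 bases before to 50 bases after the start, were at hand for 9 of the 10 members on build GRCm38.p6 (11 promoters, 3 of them of Mxi1). Myc was the member without one. For Mxd1 on chromosome 6, the 250 bases upstream of the start (chr6:86669160-86669409, minus strand, GC content 78.4%) are given 5′ to 3′, with CCAAT boxes in capitals.
Mxd1 upstream region: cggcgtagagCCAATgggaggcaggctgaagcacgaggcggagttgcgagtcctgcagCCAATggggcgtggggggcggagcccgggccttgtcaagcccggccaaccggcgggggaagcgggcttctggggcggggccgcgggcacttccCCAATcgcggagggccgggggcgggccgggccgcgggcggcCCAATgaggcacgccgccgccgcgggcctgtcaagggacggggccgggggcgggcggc
The letters CCAAT, the textbook site of the factor NF-Y, were counted on both strands and occurred 4 times in the 300 bases that reach 50 bases past the start, all of them in the stretch shown. Over the same 300 bases, at least 4 occurrences were found in 1.06% of the 32851 RefSeq promoters, and at least 1 in 37.4%. Mxd4 and Mlx had 2 each, and none was found in the windows of the other matched members.

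The E-box CACGTG, which is its own reverse complement, occurred in the promoters of 4 of the 9 members, namely Max, Mlx, Mnt and Mxd4, against 7.15% of all 32851 promoters. Here and for the sites below, members are counted by gene and the background by promoter, so that the shares are not in the same unit. The 4 sites are shown within 30 bases each because they are the letters that MYC and MAX are known to read, with the E-box in capitals.
Max (chr12:76962234-76962263, minus strand): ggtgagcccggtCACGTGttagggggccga
Mlx (chr11:101087238-101087267, plus strand): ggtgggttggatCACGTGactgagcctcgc
Mnt (chr11:74830789-74830818, plus strand): ccccacccaagcCACGTGtgcgcgcgcggt
Mxd4 (chr5:34187912-34187941, minus strand): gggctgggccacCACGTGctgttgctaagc
In Max the E-box lay across the annotated start, with 3 bases before it and 3 after it. In Mlx its first base stood 40 bases upstream of the start, in Mnt 123 and in Mxd4 219. Of these 4 genes Max was called higher and Mlx lower in MEL cells, while Mnt and Mxd4 were not called. An E2F-type site, TTTNNCGC on either strand, was found in Mycn alone, against 5.17% of all promoters, with 3 matches, 2 of which overlap each other. The third, nearest to the start, is shown in capitals.
Mycn (chr12:12941986-12942015, minus strand): gcgcgaaaggcTTTGGCGCctcccctgatt
The PU.1-type site GAGGAAGT, searched because the study concerned that factor, was found in 0 of the 9 members' windows, against 3.20% of all promoters. These matches describe letters in a window and were not tested as binding sites. In the paper, chromatin immunoprecipitation found PU.1 enriched in MEL cells at a site near Mxi1. A window without the letters therefore does not show that PU.1 was absent from a gene.

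Myc, on chromosome 15, encodes the founding activator of the network. Its log2 signals were 11.59 and 11.55 in MEL cells, against 11.69 and 11.75 in ES-EP. The cell types were separated by 0.10, with both MEL arrays on the lower side, and the cultures of each type differed by 0.05. The difference was -0.15 ± 0.08 (SE, n = 2 each), with a 95% interval of -0.33 to 0.03 and a limma adjusted p of 0.120. It equalled the median of all genes to 2 decimals and became -0.0035 after median centring. Limma, whose SE borrows from the spread of all genes, thus did not call Myc, although the gap exceeded the range within each cell type. The interval does not show that the levels were alike.

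Mycn, on chromosome 12, is the paralog best known from the nervous system. It read 5.57 and 5.58 in MEL cells and 5.81 and 5.82 in ES-EP, without overlap. The signals were close to the level of genes that blood cells are not known to use. The 95th percentile of 1027 olfactory receptor genes was 5.19 in MEL cells and 5.56 in ES-EP, and all 10 members lay above it in both. Mycn differed by -0.24 ± 0.08 (95% interval -0.42 to -0.07, adjusted p = 0.0203). The olfactory receptor genes had a median difference of -0.20, and 502 of them were called. The Mycn call was lost under each rescaling (differences of -0.084, -0.093 and -0.017, adjusted p = 0.348, 0.310 and 0.860). It was also lost without MEL culture A (0.0831), without MEL culture B (0.0827) or without ES-EP culture B (0.0574).

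Max, on chromosome 12, encodes the partner that MYC, MXD, MXI1, MNT and MGA proteins need to bind DNA. Its log2 signals reached 10.45 and 10.51 in MEL cells, against 9.89 and 10.11 in ES-EP. Both MEL arrays lay above both ES-EP arrays, by 0.34, and the ES-EP cultures differed from each other by 0.22. The difference of 0.48 ± 0.09 (95% interval 0.27 to 0.69) was a 1.39-fold higher signal in MEL cells, with an adjusted p of 0.00118. Max remained called in all 12 alternative analyses with a test, with differences between 0.37 and 0.63.

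Mxd1, formerly MAD1, is a MAX partner that replaces MYC at E-boxes and is known to be induced when blood cells differentiate. It read 7.69 and 7.76 in MEL cells and 9.12 and 9.35 in ES-EP. The gap of 1.36 between the cell types exceeded the range within them, which was 0.07 in MEL cells and 0.23 in ES-EP. The means were 7.72 ± 0.05 in MEL cells and 9.23 ± 0.16 in ES-EP (SD, n = 2 each). This was a difference of -1.51 ± 0.09 (SE), with a 95% interval of -1.72 to -1.30 and an adjusted p of 2.56e-07. Of all genes, 5.34% had a larger absolute difference. Mxd1 was called lower in MEL cells in all 12 alternatives, at -1.63 to -1.36.

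Mxd3, on chromosome 13, belongs to the same repressor family but is known for expression in cycling cells, around S phase. Its signals in MEL cells were 6.75 and 6.61, against 7.27 and 7.19 in ES-EP. The lower ES-EP array stood 0.45 above the higher MEL array. Mxd3 was 1.47-fold lower in MEL cells (difference -0.55 ± 0.09, 95% interval -0.74 to -0.36, adjusted p = 0.000268), and in all 12 alternatives it was called lower, at -0.62 to -0.40.

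The other MAX-binding repressors differed little. Mxd4, on chromosome 5, read 7.96 and 7.97 in MEL cells, against 8.01 and 8.12 in ES-EP (difference -0.10, 95% interval -0.28 to 0.08, adjusted p = 0.311). Mxi1, on chromosome 19 and also known as MXD2, read 8.94 and 8.88 in MEL cells, against 8.83 and 8.79 in ES-EP (difference 0.10, -0.07 to 0.28, adjusted p = 0.282). Mnt, on chromosome 11, encodes the most widely expressed MYC antagonist and read 7.08 and 6.99 in MEL cells, against 7.16 and 7.17 in ES-EP (difference -0.13, -0.31 to 0.05, adjusted p = 0.178). None of these 3 genes passed the test with the values as deposited, and each interval includes 0. After median centring the differences of Mxd4 and Mnt changed sign, to 0.049 and 0.017, and Mxi1 was called higher in MEL cells (0.25, adjusted p = 0.0190). Within the repressor branch, then, Mxd1 and Mxd3 were lower in MEL cells beyond the spread of the cultures, and Mxd4, Mxi1 and Mnt were not called.

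Mlx, on chromosome 11, encodes the MAX-like protein that pairs with the Mondo proteins and also with MXD1, MXD4 and MNT. It read 9.48 and 9.46 in MEL cells and 9.71 and 9.67 in ES-EP, and both MEL arrays were lower. The difference of -0.22 ± 0.08 (95% interval -0.39 to -0.04) had an adjusted p of 0.0332. It was smaller after quantile normalization (-0.14, adjusted p = 0.135), median centring (-0.069, 0.460) and cyclic loess (-0.15, 0.111), where the call was lost. Leaving out any 1 of the 4 arrays also ended it, with adjusted p-values of 0.0578 to 0.131.

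Mga, on chromosome 2, encodes a giant protein with both a T-box and a MAX-binding domain. Its signals were 8.95 and 8.99 in MEL cells, against 8.52 and 8.68 in ES-EP. Both MEL arrays were higher, by 0.27, which exceeded the range of 0.16 between the ES-EP cultures. Mga was 1.29-fold higher in MEL cells (difference 0.37 ± 0.09, 95% interval 0.18 to 0.57, adjusted p = 0.00356), with a call in all 12 alternatives and differences of 0.29 to 0.52.

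**Figure D2:**
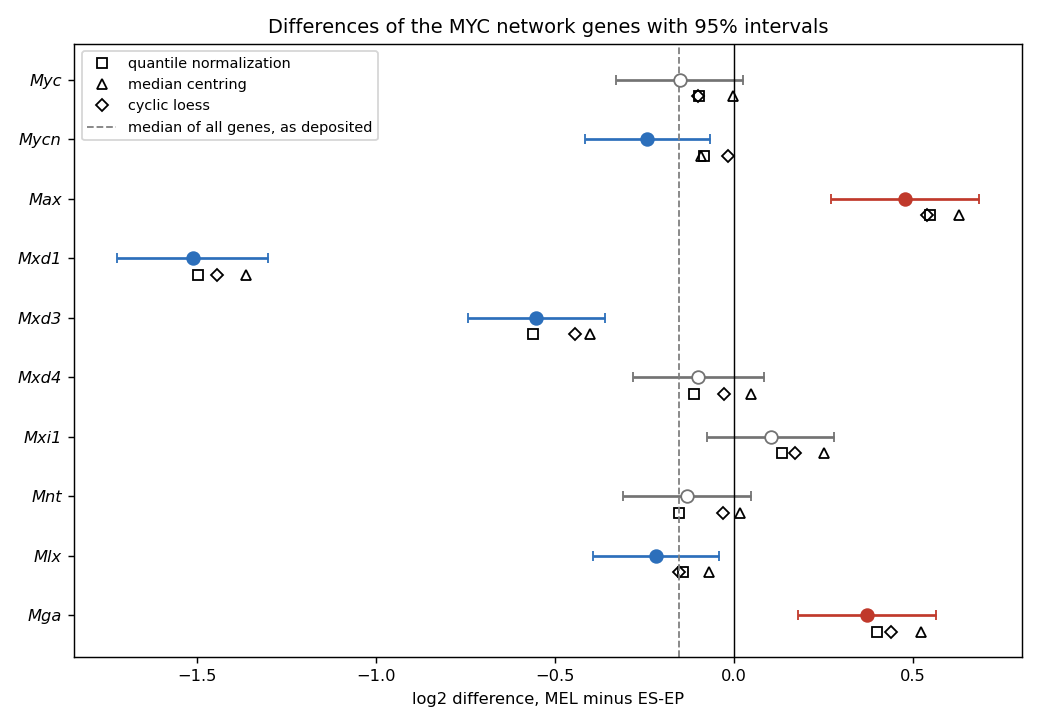
Log2 difference, MEL minus ES-EP (horizontal axis), of each network gene with its 95% interval from limma, colored red where called higher, blue where called lower and gray and open where not called. Open black symbols give the difference after each of 3 rescalings, and the dashed line marks the median of all genes at -0.15. Mxd1 lies far left of the other members at -1.51, and only Max, Mxd1, Mxd3 and Mga have intervals that exclude both 0 and the dashed line.

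The cells' identity was read from marker genes. All 7 measured erythroid markers lay above the olfactory level in both cell types. Of these 7, Gata1 was higher in MEL cells and 5 were lower. The MEL clone expressed the Gata-1 fusion, and whether RNA of the fusion added to the Gata1 signal was not tested. The log2 of the summed signal of the 7 markers was 13.61 to 13.67 in MEL cells and 14.21 to 14.29 in ES-EP. Mast cell markers summed to 7.16 to 7.22 in MEL cells and 12.07 to 12.10 in ES-EP, 5 of 6 being lower in MEL cells. However, only 2 of the 6 differed by at least 2-fold, and Cpa3, Fcer1a and Cma1 were under the olfactory level in MEL cells and ES-EP alike. The 3 measured megakaryocyte markers were all higher in MEL cells, summing to 10.06 to 10.17 against 7.76 in both ES-EP arrays. Of the macrophage, B cell, T cell and pluripotent stem cell markers, 3 of 5, 3 of 4, 2 of 4 and 4 of 5 lay below the level in both cell types, as did 1 of 5 of fibroblast and stroma. The part of other cell types in the network's differences was not tested, and in bulk RNA fewer cells of a type and less RNA per cell cannot be told apart.

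Genes around the network were followed in 10 lists with 132 distinct measured genes. Of these, 89 (67.4%) were called, near the background of 63.8% (20.5% higher and 43.2% lower in MEL cells). Among 5 other relatives of MYC and MLX, 3 were called, each of them lower in MEL cells (median -0.36). The counts were 1 higher and 2 lower after median centring and 1 and 1 after cyclic loess. Mycs, a rodent relative of Myc, averaged 5.19 ± 0.01 in MEL cells, below the olfactory level, and 6.05 ± 0.08 in ES-EP (SD, n = 2 each), a difference of -0.86 (adjusted p = 7.66e-06). Mlxipl, the glucose sensor ChREBP, differed by -0.40 (adjusted p = 0.00132), and its call was lost after cyclic loess (adjusted p = 0.0601). Mycl differed by -0.36 (adjusted p = 0.0148), which was lost under each rescaling and without MEL culture B (adjusted p = 0.165) or ES-EP culture A (adjusted p = 0.0942). Mlxip, or MondoA, differed by 0.11 (adjusted p = 0.249) and was called after median centring (0.26) and cyclic loess (0.20). Bmyc, which lacks the DNA-binding part of MYC, differed by -0.14 (adjusted p = 0.155), with a sign that turned after median centring and cyclic loess.

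Of 16 measured cofactors that work with MYC, 9 were higher and 3 lower in MEL cells, with a median of 0.26. Ruvbl1, an ATPase of chromatin remodelers, averaged 10.90 ± 0.01 in MEL cells and 9.62 ± 0.02 in ES-EP, a 2.43-fold higher signal (adjusted p = 2.09e-07). Kat2a, a histone acetyltransferase, was higher by 0.58, the elongation cyclin Ccnt1 by 0.55 and the elongation factor gene Paf1 by 0.54 in MEL cells. The 3 lower cofactors, named here after their values were seen, were Kat5, Actl6a and Cdk9.

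For the SIN3 complex, the machine that MXD proteins recruit, 10 of 15 genes were called, 5 in each direction, and the median was -0.01. The split was 5 higher and 3 lower after quantile normalization, 6 and 2 after median centring and 6 and 3 after cyclic loess. Ing2, a reader of methylated histone H3, was 1.96-fold higher in MEL cells (difference 0.97, adjusted p = 2.07e-06). Sap30 (-0.62), Sap18 (-0.44) and Sin3b (-0.28) were lower, and the last call was lost after median centring and without MEL culture A (adjusted p = 0.0919) or ES-EP culture B (0.0626). Outside the rule for named genes, Sin3a, Hdac2, Suds3 and Rbbp7 were also called higher, and Hdac1 and Brms1 lower. Fewer SIN3 genes were called without MEL culture A (4), MEL culture B (5) or ES-EP culture B (4).

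Of 13 MGA partners in the noncanonical Polycomb complex, 6 were higher and 4 lower in MEL cells (median 0.07). Yaf2, higher by 0.59, and Rybp, lower with a difference of -0.75, are paralogs that occupy the same place in the complex. Rybp averaged 7.27 ± 0.14 in MEL cells and 8.02 ± 0.16 in ES-EP, and Yaf2 averaged 8.83 ± 0.01 in MEL cells and 8.25 ± 0.17 in ES-EP. The size of the Rybp difference depended on the probe set, being -2.39 with the mean of the gene's probe sets. The Rybp means given here come from the probe set of highest average signal. Whether that probe set measured Rybp RNA alone was not tested. Wdr5, a histone methylation scaffold that also binds MYC, was higher by 0.47 and Tfdp2, a partner of E2F factors, was lower with a difference of -0.43. The other lower genes were Ring1 and Hdac1.

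Of 19 factors that control the turnover of MYC protein, 10 were called, with 7 higher and 3 lower in MEL cells (median -0.04), against 8 and 1 after median centring. The 4 with the largest differences were all higher. They were Gsk3a (1.04, adjusted p = 7.97e-06), a kinase of the family that marks MYC for degradation, the ubiquitin ligase genes Huwe1 (0.73) and Skp2 (0.71), and Aurka (0.66), a mitotic kinase known to stabilize the MYCN protein. The lower ones were Usp7, Axin1 and Trim32. Of 13 regulators of the Myc gene or transcript, 5 were higher and 4 lower (median 0.04), and 5 and 2 after median centring. Igf2bp1, an RNA-binding protein known to stabilize Myc mRNA, averaged 4.90 ± 0.08 in MEL cells, below the olfactory level, and 8.09 ± 0.05 in ES-EP, a difference of -3.18 (adjusted p = 2.30e-10). It was smaller, at -2.07, with the mean of the gene's probe sets. The receptor gene Notch1 was lower (-0.66), and Ctnnb1, encoding beta-catenin, was higher (0.47). Fubp3 differed by 0.30 (adjusted p = 0.0144), a call lost without MEL culture A (0.0953), MEL culture B (0.0647) or ES-EP culture A (0.0967). The others called were Fubp1, Cnbp and Tcf7l2, all higher, and Ctcf and E2f1, both lower. Without MEL culture A, MEL culture B, ES-EP culture A or ES-EP culture B, 4, 3, 5 and 4 of these regulators were called.

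**Figure D3:**
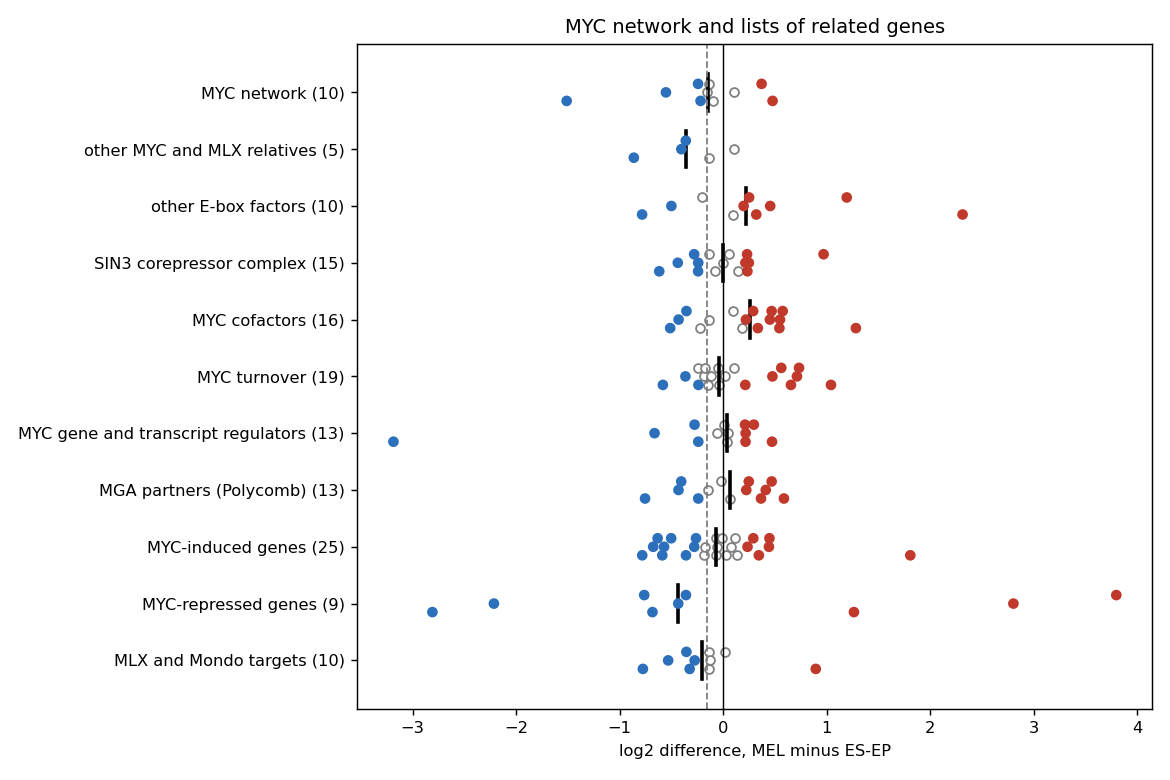
Log2 difference, MEL minus ES-EP (horizontal axis), of every measured gene in the MYC network and in 10 related lists, with the number measured in parentheses, red where called higher, blue where called lower and open where not called. Black bars give list medians and the dashed line the median of all genes at -0.15. The MYC-repressed list spreads widest, between -2.81 for Gadd45a and 3.80 for Ndrg2.

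Of 25 genes that MYC is known to induce, 15 were called, with 6 higher and 9 lower in MEL cells (median -0.06), against 9 and 7 after median centring. Tert, the catalytic subunit of telomerase, averaged 6.46 ± 0.17 in MEL cells and 4.65 ± 0.14 in ES-EP, which lay below the olfactory level there, a difference of 1.81 (adjusted p = 1.32e-07). Tfrc, the transferrin receptor (-0.78), Nop56, a ribosome assembly protein (-0.68), and Polr1b, a subunit of RNA polymerase I (-0.63), were lower in MEL cells. Tfrc is also in the erythroid marker list.

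All 9 measured genes that MYC is known to repress were called, against 63.8% of all genes, 3 higher and 6 lower in MEL cells. Of the 9, 5 differed by at least 2-fold, against 10.0% of all genes. The list was chosen with earlier results of these data known, so that these shares only describe the genes listed. The median of the list was -0.43, and the split was the same under each rescaling. Ndrg2 averaged 9.73 ± 0.03 in MEL cells and 5.93 ± 0.05 in ES-EP, a 13.9-fold higher signal (adjusted p = 5.09e-11). Ndrg1, of the same family of differentiation and stress genes, was 6.99-fold higher, at 9.88 ± 0.14 in MEL cells and 7.07 ± 0.03 in ES-EP. Gadd45a, induced by DNA damage, was 7.01-fold lower, at 8.12 ± 0.07 in MEL cells and 10.93 ± 0.05 in ES-EP, and Cdkn2b, which encodes the CDK inhibitor p15, was 4.64-fold lower, at 6.64 ± 0.11 in MEL cells and 8.86 ± 0.05 in ES-EP. The fifth gene past 2-fold, outside the rule for named genes, was Cebpa, a myeloid transcription factor, which was 2.40-fold higher in MEL cells.

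Of 10 targets of MLX and the Mondo proteins, 6 were called, with 1 higher and 5 lower in MEL cells (median -0.21). Under each of the 3 rescalings, 1 was higher and 3 were lower, with medians of -0.11, -0.057 and -0.088 after quantile normalization, median centring and cyclic loess. Txnip, a glucose-induced thioredoxin inhibitor, was 1.86-fold higher, at 11.48 ± 0.0017 in MEL cells and 10.59 ± 0.05 in ES-EP (adjusted p = 4.58e-06). The lipid synthesis genes Scd1 (-0.53) and Acly (-0.35) were lower. G6pc differed by -0.77 but did not reach the olfactory level in MEL cells or in ES-EP. The other lower genes were Fasn and Gpd1.

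Of 10 further E-box factors without MAX as a partner, 6 were higher and 2 lower in MEL cells (median 0.23), and the split was the same under each rescaling. Arntl, or BMAL1, the core activator of the circadian clock, averaged 7.07 ± 0.01 in MEL cells and 4.75 ± 0.22 in ES-EP, below the olfactory level there, a difference of 2.31 (adjusted p = 1.72e-08). Bhlhe40, a repressor in the same clock, was 2.29-fold higher, at 8.82 ± 0.02 in MEL cells and 7.63 ± 0.17 in ES-EP. Mitf was lower (-0.50), as was its relative Tfec (-0.78), whose signal was under the olfactory level in MEL cells and in ES-EP.

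**Figure D4:**
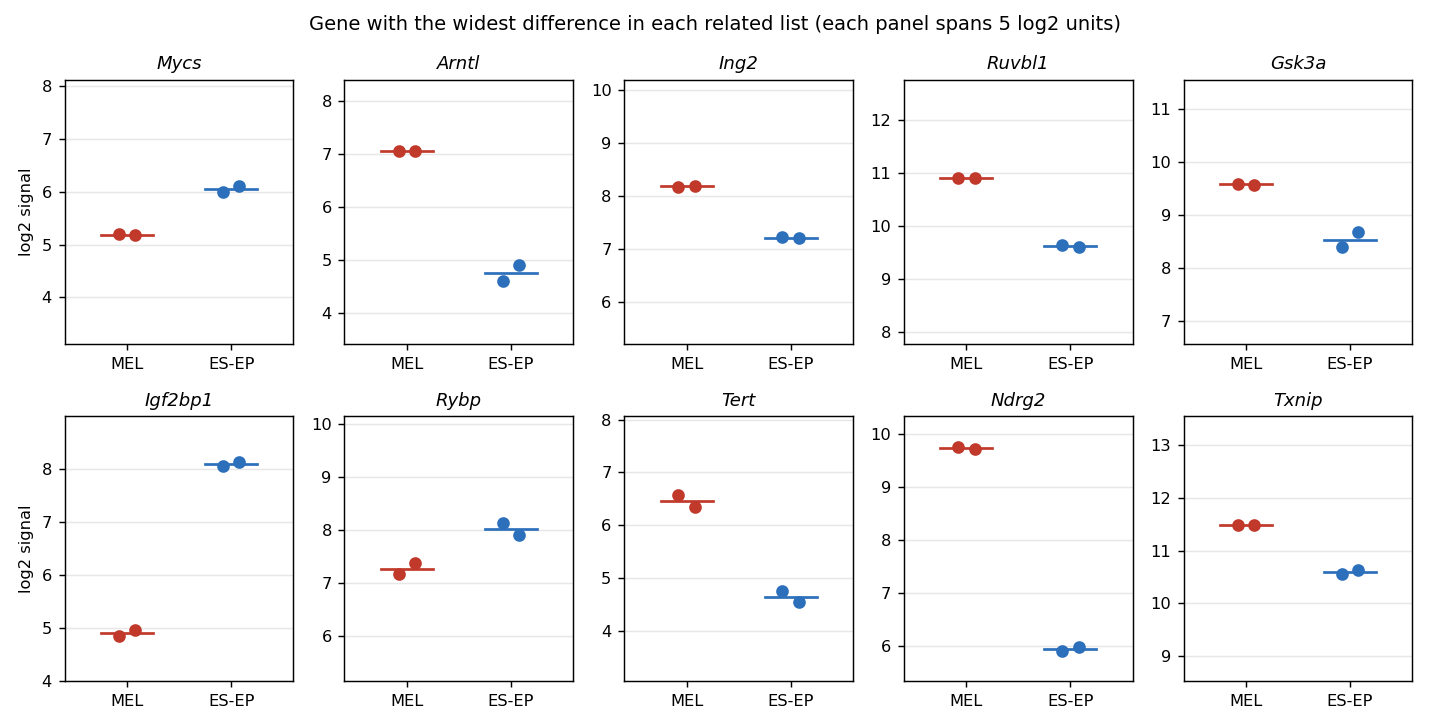
Log2 signal (vertical axis) of the gene with the largest absolute difference in each related list, in the 2 MEL arrays (red, left) and the 2 ES-EP arrays (blue, right), with a line at the mean and the same number of log2 units in each panel. The arrays of both cell types are apart in all panels, most widely for Ndrg2, at a mean of 9.73 in MEL cells and 5.93 in ES-EP.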

How the data were processed

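RNA from duplicate cultures of MEL cells and ES-EP was hybridized to Affymetrix Mouse Gene 1.0 ST arrays, 1 array per culture. The deposited values are log2 signals that the authors obtained by RMA in GeneSpring GX, and they were used as deposited, although the array medians differed between the cell types. Of 35557 probe sets, 21789 carried a single gene symbol, 1621 several and 12147 were unnamed here. Where a gene had more than 1 probe set (999 genes), that of highest average signal across the 4 arrays was kept, which left 19938 genes. Whether each kept probe set measured its named gene alone was not tested, for the members or for the related lists. Differences were MEL minus ES-EP from limma 3.58.1 in R 4.3.3 (lmFit and eBayes). Each gene had 2 residual degrees of freedom, and the spread of all genes lent it 8.20 prior degrees of freedom. Two-sided p-values were adjusted by Benjamini-Hochberg over all genes at 0.05, and the fit was tested on simulated data. Named genes were the 10 members and, from each related list, up to 4 called genes with the largest absolute difference, or all genes of a list of 5. Alternatives covered 3 rescalings, a filter at the median signal, other probe set choices, trend and robust moderation, a block on the replicate letter, each array left out and a plain 2-fold rule. Promoter sequences came from RefSeq (GRCm38.p6), matched by symbol. Members, lists and motifs were chosen with earlier results of these data known. The number of arrays limits the precision.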

Additional observations from a re-analysis of the deposited data

How the results depend on the processing

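Max, Mga, Mxd1 and Mxd3 kept their direction and call in all 12 alternatives with a test. The 4 members called lower became 2 after quantile normalization, median centring or cyclic loess. Mycn was then at -0.084, -0.093 and -0.017 and Mlx at -0.14, -0.069 and -0.15, both no longer called. After median centring Mxd4 (0.049) and Mnt (0.017) changed sign and Mxi1 (0.25) passed the test. With trend and robust moderation Myc passed it (-0.15, adjusted p = 0.0161). With all probe sets in the fit Mlx was lost (-0.22, adjusted p = 0.0665), and 4 SIN3 genes and 4 Myc regulators were called. Over all genes 5644 were called lower after median centring and 5460 after cyclic loess. The filter at the median signal left 9969 genes, of which 7117 were called and 3876 called lower, and 0 of the other MYC and MLX relatives were called by limma, since Mycs, Mlxipl and Mycl were under that filter, as was Mycn.

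Without MEL culture A, MEL culture B or ES-EP culture B, 2 members were called lower, and 3 without ES-EP culture A (range 2 to 3). Mycn then ranged between -0.25 and -0.24 and lost its call without MEL culture A, MEL culture B or ES-EP culture B. Mlx ranged between -0.24 and -0.20 and lost its call without any of the 4. The E-box factors called ranged from 5 (without MEL culture A) to 7, the SIN3 genes from 4 (without MEL culture A or ES-EP culture B; 5 without MEL culture B) to 7, and the Myc regulators from 3 (without MEL culture B) to 5. Over all genes 9889 to 11427 were called.

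The plain 2-fold rule, with no test, took 1 member (0 higher, 1 lower) and 1993 of all genes (1141 higher, 852 lower). In the lists it took 0 relatives, 2 E-box factors, 0 SIN3 genes, 1 cofactor, 1 turnover factor, 1 Myc regulator, 0 MGA partners, 1 induced gene, 5 repressed genes and 0 MLX and Mondo targets.

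A replicate block on the letters A and B called 12709 genes and left Mlx uncalled (-0.22, adjusted p = 0.0545), and it changed no other member's call. The letters gave no sign of pairing the cultures, since the A minus B differences of both cell types correlated at -0.036 across genes. Of the 41 related genes named, 35 kept direction and call in each alternative with a test in which they were measured, some being under the median-signal filter. The plain 2-fold rule was not counted here. With 2 arrays a group, 2 residual degrees of freedom and a moderated spread, small differences such as those of Myc, Mycn and Mlx were near the limit of the test. Their arrays did not overlap, but their calls changed with the moderation, the rescaling or the arrays kept.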
